A study of Mus musculus with 34 samples.

Results

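The genes described here encode the epidermal growth factor (EGF) receptor family, its ligands and 1 inhibitor. They were the receptor genes Egfr, Erbb2 and Erbb3, the ligand genes Areg, Ereg, Hbegf, Tgfa, Btc and Epgn, and the inhibitor gene Lrig1. A gene was taken from the array where a probe set carried exactly 1 gene symbol and that symbol was the gene's own. The probe set with the highest mean over the 32 whole-cornea arrays was to stand for the gene, and each gene found had 1 such probe set. This rule found 9 of the 10 genes, out of 19938 distinct symbols, and Areg was not analysed here. All 9 also passed the filter on dim probe sets and so were among the 12998 genes tested.

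Corneas came from wild-type CB6 mice, and their RNA was read on 34 Affymetrix gene arrays. There were 3 arrays of whole cornea at each of embryonic days 14.5, 15.5 and 17.5 (E14.5, E15.5, E17.5), postnatal days 3, 7, 14 and 28 (P3, P7, P14, P28) and 2 months. At 6 months, 1 year, 18 months and 2 years there were 2 arrays each. A further array held corneal epithelium at P28, lifted off with dispase, and another held corneal stroma at P7, cut out of sections by laser capture. No group was treated or genetically altered. Whether arrays of the same age stand for different mice is not given in the labels, and the p-values therefore cover only the spread between these samples. Values are given as array intensity, a brightness in arbitrary units, and differences as differences of log2(intensity + 16), which understate the change of dim genes. A gene is called where limma's moderated test, adjusted over all genes tested by the method of Benjamini and Hochberg, gave a p under 0.05 and the difference was at least 1 log2 unit.

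The EGF receptor, encoded by Egfr, is a cell-surface tyrosine kinase that pairs with itself or with the related receptors encoded by Erbb2 and Erbb3 when a ligand binds. The ligands are made as membrane-bound precursors and are cut free by metalloproteases, and the signal inside the cell runs through the Ras and MAP kinase cascade, phosphoinositide 3-kinase and Stat3. In the corneal epithelium the pathway is known for driving cell division and migration during renewal and wound closure.

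In the genome, 4 of the ligand genes are neighbours. Epgn, Ereg, Areg and Btc lie in this order on chromosome 5 and are the 4 protein-coding genes among the 7 genes of all kinds that RefSeq places from the first to the last of them in the mouse assembly GRCm38.p6. The promoters of Epgn and Btc are shown because both genes rose between E15.5 and P14 and stand at the ends of this cluster, and that of Egfr because it did not pass the test over the same ages. Each sequence is the 250 bases before the gene's start in RefSeq's GRCm38.p6 table, on the gene's own strand, at chr5:91027267-91027516 (+ strand) for Epgn, chr5:91402995-91403244 (- strand) for Btc and chr11:16751953-16752202 (+ strand) for Egfr.
Epgn: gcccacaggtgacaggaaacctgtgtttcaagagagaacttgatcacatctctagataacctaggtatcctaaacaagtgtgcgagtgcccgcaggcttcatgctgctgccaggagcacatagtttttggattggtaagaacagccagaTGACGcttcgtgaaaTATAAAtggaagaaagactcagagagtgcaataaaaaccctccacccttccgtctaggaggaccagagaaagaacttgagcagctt
Btc: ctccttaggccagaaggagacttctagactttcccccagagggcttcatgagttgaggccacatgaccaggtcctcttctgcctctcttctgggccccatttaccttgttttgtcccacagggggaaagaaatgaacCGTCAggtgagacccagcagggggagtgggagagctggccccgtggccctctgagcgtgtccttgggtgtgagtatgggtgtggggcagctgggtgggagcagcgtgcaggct
Egfr: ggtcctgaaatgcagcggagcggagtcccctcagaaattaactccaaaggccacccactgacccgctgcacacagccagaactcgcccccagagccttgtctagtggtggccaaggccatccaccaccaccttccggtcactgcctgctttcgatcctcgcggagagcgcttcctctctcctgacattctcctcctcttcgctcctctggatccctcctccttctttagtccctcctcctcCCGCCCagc
Capitals mark matches, on either strand, to 4 motifs that were searched, whose letters do not overlap. These were the AP-1 site (TGANTCA, in 6.75% of 32851 RefSeq promoter windows of 250 bases), the GC box (GGGCGG, in 32.7%), the TATA box (TATAAA, in 12.4%) and the core of the cyclic AMP response element (TGACG, in 17.8%). The Epgn window held a TATA box 86 bases before the start and a TGACG core at 101 bases. A TGACG core 113 bases before the start was the single match in the Btc window, and a GC box 9 bases before the start that in the Egfr window. An AP-1 site was in none of the 7 windows of the listed genes that RefSeq's table holds. A match describes letters in the sequence and is not a shown binding site.

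The arrays differed in what tissue they held, and these values stand beside every result below. Array medians of whole cornea, taken over the probe sets with 1 symbol, ran from 225.4 to 264.9, and arrays of one age correlated at r from 0.879 to 0.985 over 28 pairs, with no identical pair. The E14.5 arrays stood apart. Summed intensity of 7 corneal epithelium markers was 1262 to 5678 there, with 2 to 4 of the 7 above the array median, against 20800 to 31250 and 7 of 7 at E15.5. For 8 stroma markers the sums were 2697 to 10170 against 42980 to 50030. Sums of 4 blood markers were 22820 to 33180 at E14.5 and 602.6 to 1148 at E15.5, and sums of 9 lens markers 4603 to 67120 and 1357 to 1668. Replicate 3 of E14.5 correlated at 0.879 with replicate 1 and 0.908 with replicate 2, which correlated at 0.948 with each other. Lens sums of 17990 or more were also read on 1 array each at 6 months (replicate 2), 2 months (replicate 1), P28 (replicate 2) and P14 (replicate 2). In whole tissue, fewer cells of a type and less RNA per cell cannot be told apart.

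Over the 12 ages, 8 of the 9 genes were called by limma's moderated F test, against 40.6% of all genes tested. The exception was Tgfa, whose age means spanned 0.64 log2 units (adjusted p = 0.0588). The median span from the lowest to the highest age mean was 2.29 log2 units over the 9 genes and 0.87 over all genes tested. Among the ligands the spans were 3.74 for Epgn (13.3-fold, adjusted p = 5.56e-09), 3.69 for Ereg (12.9-fold, adjusted p = 6.13e-08), 3.66 for Hbegf (12.7-fold, adjusted p = 3.78e-06) and 1.79 for Btc (3.45-fold, adjusted p = 4.41e-06). The receptors and the inhibitor spanned less than the first 3 of these. Their spans were 2.62 for Erbb3 (6.16-fold, adjusted p = 1.67e-07), 2.29 for Egfr (4.89-fold, adjusted p = 0.000156), 1.98 for Lrig1 (3.95-fold, adjusted p = 1.55e-05) and 1.69 for Erbb2 (3.22-fold, adjusted p = 0.000457). The lowest mean was at E14.5 for the 3 receptors, Lrig1, Ereg and Hbegf, and at E15.5 for Btc and Epgn.

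**Figure D1:**
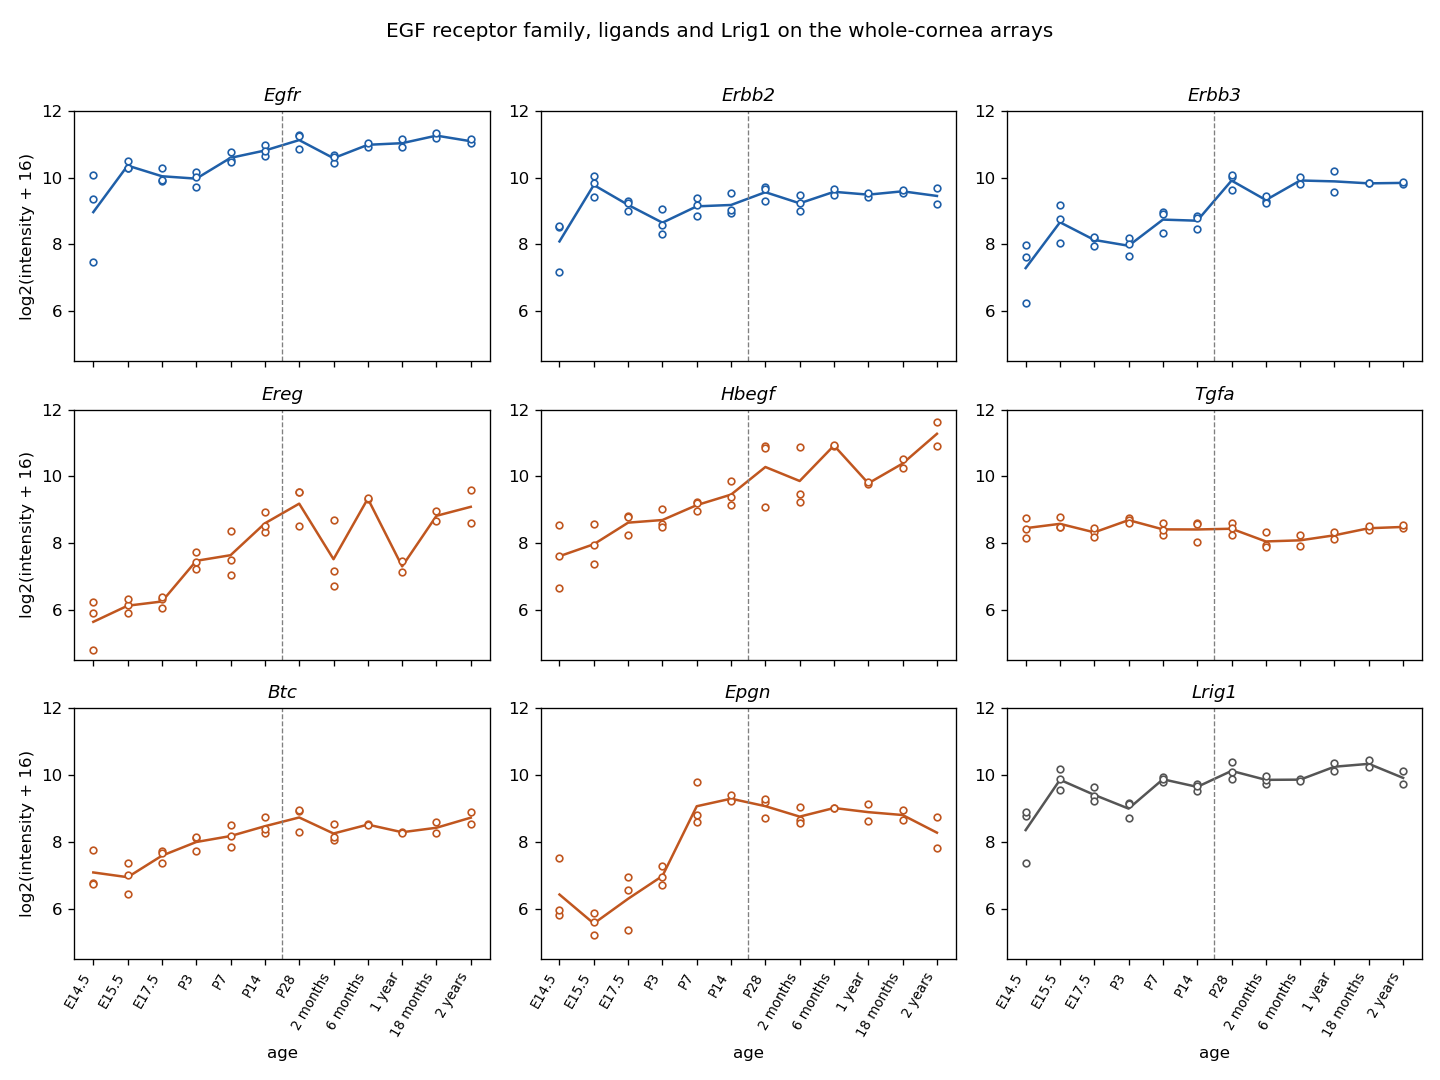
Log2(intensity + 16) of the 9 genes on each whole-cornea array (circles) and the age means (lines), with receptors in blue, ligands in orange and the inhibitor Lrig1 in grey. The dashed line lies between P14 and P28, where the array set, as inferred from the readings, also changes. The receptors and Lrig1 step up from E14.5 to E15.5, Epgn from P3 to P7, and Tgfa stays within a span of 0.64 log2 units.

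The same F test over E14.5 to P14 alone called 8 of 9 genes, against 19.6% of all genes tested, with Tgfa again outside (adjusted p = 0.35). Without the 3 E14.5 arrays, a setting added after the data were seen, 5 genes were called. Egfr, Erbb3 and Lrig1 then spanned 0.84, 0.78 and 0.88 log2 units and fell short of the minimum of 1. Over P28 to 2 years 1 of 9 was called, against 6.77% of all genes tested, and this was Ereg.

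The 3 receptor genes and Lrig1 were higher at E15.5 than at E14.5. These 4 of 9 genes were called higher and none lower, against 7.35% of all genes tested called higher, and the median difference was 0.48 log2 units over the 9 genes and 0.01 over all genes. Egfr, the receptor for the family's ligands measured here, read 1056, 645 and 161 on the 3 E14.5 arrays and 1245, 1222 and 1439 at E15.5. The groups did not overlap, and the E14.5 arrays were spread over more than 6-fold because replicate 3 was low. The difference was 1.39 log2 units (SE 0.35, n = 3 and 3, adjusted p = 0.00282).

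Erbb2, the receptor with no known ligand of its own that serves as a partner for the others, read 353, 363 and 129 at E14.5 and 671, 906 and 1053 at E15.5. Every E15.5 array was above every E14.5 array. The difference was 1.69 log2 units (SE 0.27, adjusted p = 3.52e-05). Erbb3, a receptor for neuregulins with a weak kinase, read 181, 239 and 60.2 at E14.5 and 249, 421 and 558 at E15.5. The lowest E15.5 array was close to the highest E14.5 array, without overlap, and the difference was 1.37 log2 units (SE 0.31, adjusted p = 0.00109).

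Lrig1 encodes a transmembrane protein that binds these receptors and promotes their breakdown. It read 426, 461 and 151 at E14.5 and 730, 921 and 1137 at E15.5, again without overlap. The difference was 1.51 log2 units (SE 0.25, adjusted p = 5.78e-05). E14.5 replicate 3 was the lowest of all 32 whole-cornea arrays for Egfr, Erbb2, Erbb3, Lrig1 and Hbegf.

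Leaving that array out ended 2 of these calls. Egfr then differed by 0.64 log2 units (adjusted p = 0.0101) and Erbb3 by 0.85 (adjusted p = 0.0122), both under the minimum of 1, while Erbb2 (1.23, adjusted p = 0.000232) and Lrig1 (1.02, adjusted p = 0.00014) stayed called. Without the 6 arrays rich in lens RNA, which leaves E14.5 replicate 1 alone at its age, Egfr differed by 0.29 log2 units (adjusted p = 0.299) and the other 3 genes remained called. The part that the markers of blood, lens, epithelium and stroma played in these differences was not tested.

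No ligand gene was called over this step. Ereg, Btc and Epgn were below the array median on every E14.5 and E15.5 array, where the differences understate a change. The differences between E15.5 and E14.5 were 0.48 log2 units for Ereg (SE 0.41, adjusted p = 0.369), 0.36 for Hbegf (SE 0.45, adjusted p = 0.558), 0.13 for Tgfa, -0.14 for Btc and -0.87 for Epgn (SE 0.39, adjusted p = 0.0819). Epgn alone of the ligands had an unadjusted p under 0.05, although its groups overlapped. It read 166.4, 39.7 and 46.75 at E14.5 and 42.25, 32.7 and 21.03 at E15.5. The difference between receptors and ligands as groups was not tested.

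**Figure D2:**
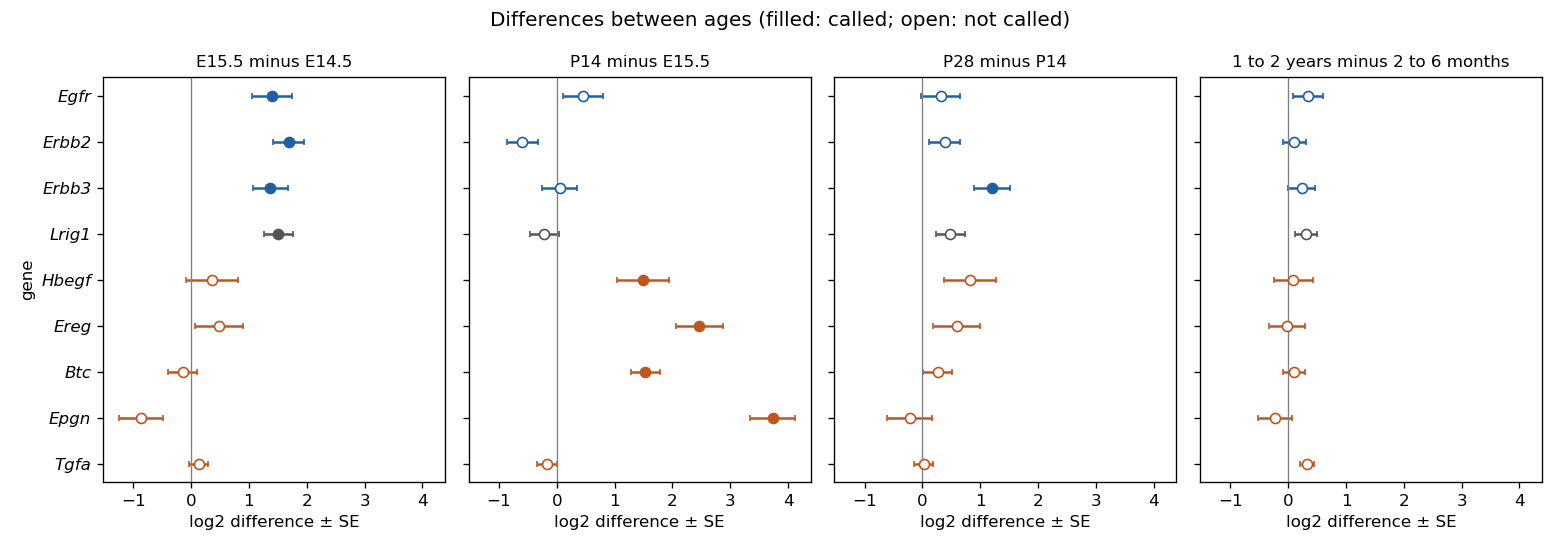
Differences in log2(intensity + 16) between ages with their standard errors from the limma fit, for receptors (blue), Lrig1 (grey) and ligands (orange); filled points were called and open points were not. The receptors and Lrig1 are called in the first panel, Hbegf, Ereg, Btc and Epgn in the second, Erbb3 in the third, and none in the fourth.

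After E15.5 the receptor genes showed no called step until P28, but their means and that of Lrig1 were lower at P3 than at E15.5 or P14. Summed epithelium markers were 20800 to 31250 at E15.5, 18730 to 20240 at P3 and 38010 to 48910 at P14. Stroma sums at these ages were 42980 to 50030, 36920 to 41580 and 31210 to 44980. The part of these markers in the lower means was not tested. Mean Erbb2 intensity was 877 at E15.5 and 396 at P3, and Erbb2 stayed called by the F test without the E14.5 arrays. Mean Lrig1 intensity was 929 at E15.5, 501 at P3 and 925 at P7. The step of Lrig1 from P3 to P7 was 0.88 log2 units without overlap (SE 0.25, adjusted p = 0.0274), under the minimum of 1. From E15.5 to P14 the differences were 0.45 log2 units for Egfr (adjusted p = 0.421), 0.05 for Erbb3 (adjusted p = 0.949), -0.21 for Lrig1 (adjusted p = 0.645) and -0.60 for Erbb2 (SE 0.27, adjusted p = 0.135). Erbb2 read 732, 479 and 512 at P14, and the groups overlapped. Egfr read 2014, 1592 and 1760 at P14, all above its E15.5 arrays.

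Erbb3 was the 1 gene of the 9 called between P14 and P28, against 4.15% of all genes tested called higher. It read 450, 339.7 and 427 at P14 and 1029, 776 and 1062 at P28, and the groups did not overlap. The difference was 1.20 log2 units (SE 0.31, adjusted p = 0.00408), where the median of all genes was 0.11. The call ended with quantile normalization, where the median of all genes was -0.01 and Erbb3 differed by 0.99 (adjusted p = 0.021), and with P28 and 2 months set against P7 and P14 (0.89, adjusted p = 0.00194). Over the same step the summed epithelium markers were 38010 to 48910 at P14 and 58760 to 62720 at P28. Stroma sums were 31210 to 44980 and then 16690 to 19390, and endothelium sums 4326 to 8130 and then 1573 to 2372, each without overlap. Their part in the Erbb3 difference was not tested. Age and array set cannot be told apart at this step. The array set is inferred from the readings, as the sample titles name none. It rests on 8 probe sets without a gene name, picked on this split. Their lowest reading before it was over 100 times their highest after it. On the 18 arrays from E14.5 to P14 they read at least 1501, and on the 14 arrays from P28 on at most 12.8.

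From P28 on Erbb3 stayed between 586 and 1156 on all 14 arrays, above every earlier array. The highest earlier one was E15.5 replicate 3 at 558. Egfr had its highest mean at 18 months, with 2306 and 2563, and read 1377 to 2563 from P28 on. Erbb2 read 493 to 828 over the same arrays and Lrig1 828 to 1377. No step of Egfr, Erbb2 or Lrig1 after P14 was called. At P28 Lrig1 read 1077, 933 and 1334, all above its P14 values of 838, 727 and 799 (0.48 log2 units, adjusted p = 0.155).

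Between E15.5 and P14 the calls were all in ligand genes. Of the 9 genes, 4 were called higher at P14 and none lower, against 3.21% of all genes tested called higher. The median difference was 0.45 log2 units over the 9 genes and -0.03 over all genes.

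Epgn, which encodes epigen, a ligand of the EGF receptor, had the largest difference of the 9. It read 42.2, 32.7 and 21.0 at E15.5 and 594, 585 and 661 at P14. The P14 arrays were all more than 10-fold brighter than any E15.5 array, and the difference was 3.74 log2 units (SE 0.39, adjusted p = 2.94e-07). The change fell mostly between P3 and P7. Epgn read 108, 139 and 89.3 at P3 and 434, 872 and 372 at P7, without overlap, and this single step was 2.09 log2 units (SE 0.39, adjusted p = 0.00161), called under all 47 other settings. Over this step the epithelium sums were 18730 to 20240 and then 32540 to 42290, and the endothelium sums 3934 to 5137 and then 6547 to 8913, and their part was not tested. From P14 on no step of Epgn was called, and its arrays read 208 to 661, with the lowest at 2 years.

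Ereg, which encodes epiregulin, a ligand of the EGF receptor and of Erbb4, read 55.4, 44.0 and 63.97 at E15.5 and 471, 307 and 352 at P14. The P14 arrays were all above those of E15.5, by 2.47 log2 units (SE 0.41, adjusted p = 0.000137). Readings at E14.5 (12.2 to 58.9) and E17.5 (50.7 to 67.8) were as low as at E15.5, and those at P3 (198, 158 and 135) were all higher. The step from E17.5 to P3 was 1.22 log2 units (SE 0.41), at the edge of the threshold (adjusted p = 0.0496). That call was lost under 30 of 47 other settings, among them leaving out any 1 of the E17.5 or P3 arrays, with adjusted p up to 0.145. Ereg was below the array median on every E17.5 and P3 array. Over this step muscle sums were 3135 to 29570 and then 1705 to 2009. Lens sums were 1398 to 1470 and then 3182 to 6323, and epithelium sums overlapped. Their part was not tested. The call between E15.5 and P14 was kept under all 48.

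Btc, which encodes betacellulin, read 149, 114 and 71.3 at E15.5 and 409, 295 and 322.1 at P14. The groups did not overlap, and the difference was 1.53 log2 units (SE 0.25, adjusted p = 0.00013). No single step of Btc was called. Its mean intensity was 111.5 ± 39.0 at E15.5, 242 ± 39.5 at P3, 342 ± 59.7 at P14 and 419 ± 104 at P28 (SD, n = 3 each).

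Hbegf, which encodes heparin-binding EGF-like growth factor, read 368, 231 and 149.5 at E15.5 and 908, 649.7 and 546 at P14. Every P14 array was above every E15.5 array, by 1.49 log2 units (SE 0.45, adjusted p = 0.0225). The call ended without E15.5 replicate 2 (1.48, adjusted p = 0.0559), E15.5 replicate 3 (1.19, adjusted p = 0.128) or P14 replicate 1 (1.29, adjusted p = 0.0833), and with P7 in place of P14 (1.17, adjusted p = 0.0949). No single step of Hbegf was called.

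Tgfa, which encodes transforming growth factor alpha, read 219 to 428 on the 32 arrays, and its difference between E15.5 and P14 was -0.17 log2 units (SE 0.16, adjusted p = 0.554). Its pooled SD between arrays of one age over all 12 ages, 0.20 log2 units, equalled the median of all genes tested. The summed epithelium markers were 20800 to 31250 at E15.5 and 38010 to 48910 at P14, and those of 7 conjunctiva and skin genes 2095 to 3382 and 5795 to 7341, with 5 to 6 of the 7 above the array median at P14. Their part in the ligand differences was not tested.

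**Figure D3:**
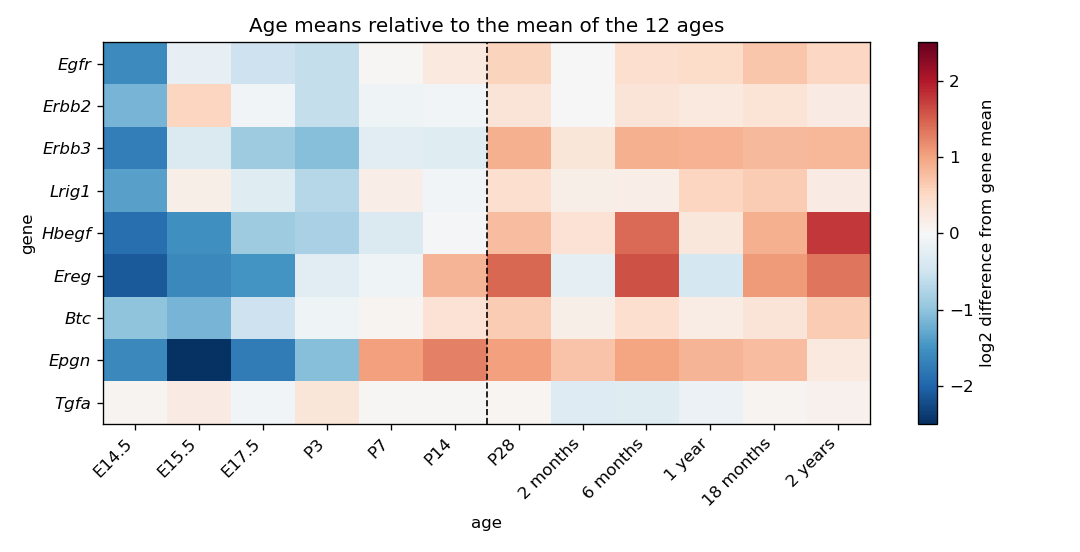
Age means of log2(intensity + 16) for each gene, relative to the gene's own mean over the 12 ages (blue lower, red higher), with the dashed line between P14 and P28. Receptors and Lrig1 are lowest at E14.5, Epgn turns from blue to red between P3 and P7, and Ereg and Hbegf have lower means at 2 months and 1 year than at the ages beside them.

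Counted over the 11 steps from each age to the next, 9 gene-step pairs were called, against 2.49% of all gene-step pairs. Of these, 4 were the receptors and Lrig1 at E15.5. The others were Ereg at P3, Epgn at P7, Erbb3 at P28, and Ereg again at 2 months and at 6 months.

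In the adult cornea Ereg and Hbegf had the widest spans of the family. Ereg read 720, 722 and 347 at P28, 399, 89.0 and 126 at 2 months, 622 and 636 at 6 months, 125 and 161 at 1 year, 483 and 393 at 18 months and 372 and 749 at 2 years. The 1-year arrays and 2 of the 2-month arrays were the low ones, below every other adult array. Over P28 to 2 years the span of Ereg was 2.03 log2 units (adjusted p = 0.00468), and the call was kept under all 47 other settings.

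By single steps, Ereg at 2 months was 1.66 log2 units below P28 (SE 0.41, adjusted p = 0.00646), although the groups overlapped. That call ended without 2 months replicate 2 (adjusted p = 0.0606). At 6 months Ereg was 1.81 above 2 months (SE 0.46, adjusted p = 0.0323), and this call was lost under 10 of 47 other settings, among them leaving out 2 months replicate 2 or 3 or either 6-month array (adjusted p 0.111 to 0.168). The fall from 6 months to 1 year was not called (-2.03, SE 0.50, adjusted p = 0.0949), although the arrays did not overlap.

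Hbegf read 1909, 1823 and 528 at P28, 1865, 701 and 581 at 2 months, 1896 and 1959 at 6 months, 857 and 886 at 1 year, 1459 and 1197 at 18 months and 1916 and 3163 at 2 years. The lowest Hbegf readings, from 528 to 886, were on P28 replicate 3, 2 months replicates 2 and 3 and both 1-year arrays. These were the 4 arrays with the lowest adult Ereg and the P28 array with the lower Ereg of its age. Hbegf spanned 1.48 log2 units over these ages but was not called (adjusted p = 0.165). Over the 14 arrays from P28 on, its pooled SD between arrays of one age was 0.71 log2 units, above that of 98.7% of all genes tested. For Ereg this SD was 0.66 (above 98.4%) and for Epgn 0.34 (above 92%), against a median of 0.17 over all genes. The other 6 genes had SDs from 0.15 (Egfr) to 0.26 (Btc).

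**Figure D4:**
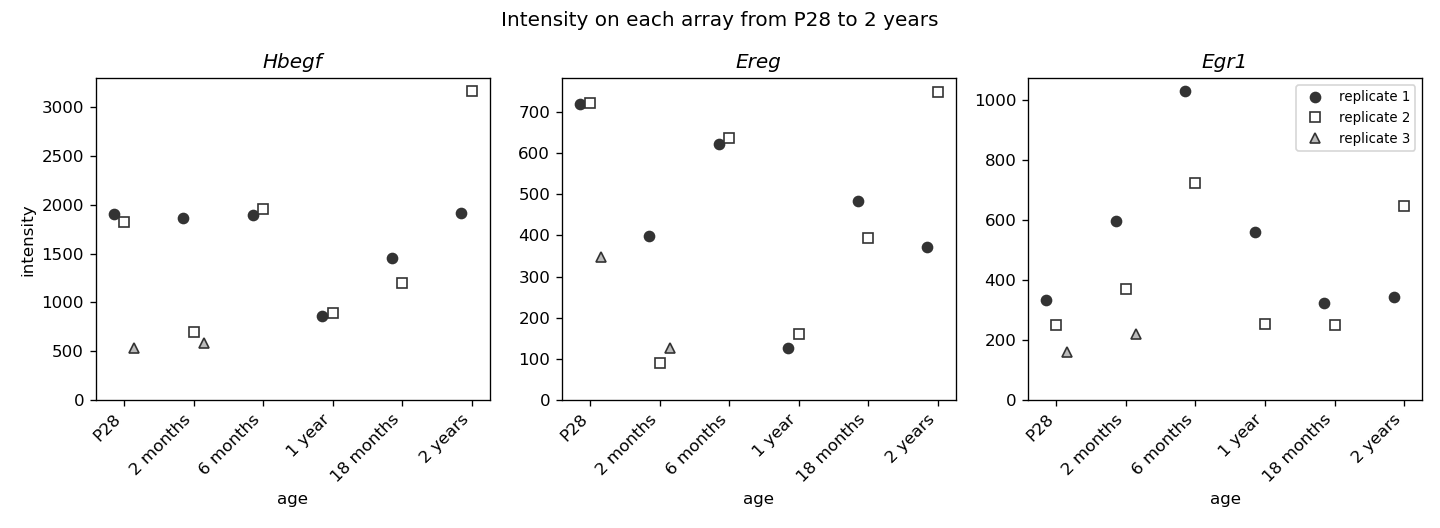
Intensity of Hbegf, Ereg and the early response gene Egr1 on each array from P28 to 2 years (2 or 3 arrays per age, symbols by replicate number). Hbegf and Ereg are low together on P28 replicate 3, 2 months replicates 2 and 3 and both 1-year arrays, and Egr1 is highest at 6 months.

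Markers of other cells also differed between these adult arrays. Summed conjunctiva and skin markers were 5317 to 9067 at P28, 3699 to 4869 at 2 months, 7147 to 7730 at 6 months, 3418 to 3560 at 1 year, 7347 to 7705 at 18 months and 8081 to 10330 at 2 years, so the sums were lowest at 2 months and 1 year, the ages with the lowest Ereg means. Of these 7 markers, 3 to 6 were above the array median at any adult age. Their median log2 value per array averaged 7.98 at 1 year, 8.38 at 2 months and 8.30 at 18 months. By this measure 1 year was lowest, and 2 months was above 18 months. Corneal epithelium sums were 50360 to 53710 at 2 months and 51300 to 53320 at 1 year, which overlapped the low end of the other adult ages (52980 to 62720). Endothelium sums went the other way, and stroma sums did so except against P28. For 6 corneal endothelium markers they were 5787 to 7339 at 2 months and 2912 to 5046 at 1 year, above the 613 to 2377 of the other adult ages. Stroma sums were 16200 to 21640 at 2 months and 12360 to 17030 at 1 year. These were above the 4450 to 7836 at 6 months, 4483 to 6178 at 18 months and 2496 to 10980 at 2 years. At P28 the stroma sums were 16690 to 19390, which overlapped those of both 2 months and 1 year. For 5 retina markers the sums were 1060 to 1865 at P28, 1254 to 8057 at 2 months and 4512 to 23280 at 6 months. They were 1150 to 3606 at 1 year, 613.5 to 810.8 at 18 months and 4144 to 5148 at 2 years. The part of all these markers in the Ereg and Hbegf values was not tested. Replicates 2 and 3 at 2 months carry the identifiers 1B and 1A in the labels, and averaging them as 1 sample left the 6-month call of Ereg at adjusted p = 0.149.

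Age beyond 6 months brought no call in the family. With 1 year, 18 months and 2 years (6 arrays) set against 2 and 6 months (5 arrays), limma called 0 of 9 genes, against 0.677% of all genes tested. Differences ran from -0.23 log2 units for Epgn to 0.34 for Egfr, with a median of 0.11. At an unadjusted p under 0.05 there was 1 gene, Tgfa (0.32, SE 0.12, adjusted p = 0.147), which read 219 to 307 at 2 and 6 months and 265 to 354 later. Hbegf at 2 years (1916 and 3163) was above both 18-month arrays, by 0.89 log2 units, but was not called (SE 0.55, adjusted p = 0.781).

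The epithelium and stroma arrays give 1 reading per layer and no test, and they differ in age as well as layer. None of the 9 genes differed by 2 log2 units or more, as 1.94% of 11107 genes did. Each of the 9 read higher on the epithelium array, by a median of 0.45 log2 units where the median of all genes was 0.00. Ereg read 489.9 and 302 (0.67 log2 units), Erbb3 709 and 446 (0.65), Egfr 1158 and 749 (0.62) and Hbegf 644 and 445 (0.52). Lrig1, Epgn and Btc differed by 0.45, 0.44 and 0.42. On the stroma array Ereg and Btc (296.7) were below the array median of 357. Erbb2 read 476 and 429.7 (0.14) and Tgfa 457 and 441 (0.05), which are near equal on both arrays.

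The layer labels were checked on markers. Krt12, the keratin of the differentiated corneal epithelium, read 15150 on the epithelium array and 2185 on the stroma array, and Aldh3a1, a corneal crystallin, read 10390 and 2028. Kera and Lum, stromal proteoglycans, read 158 and 143 on the epithelium array and 3433 and 2109 on the stroma array. The basal keratin Krt14 was near equal, with 2244 and 2673. All 7 epithelium markers were above the median of the stroma array as well, and its lens and muscle sums were 45800 and 10620. Conjunctiva and skin sums were 4899 on the epithelium and 7345 on the stroma array. Of these markers Krt10 read 343.9 and 2531, and Krt13 went the other way with 2505 and 779.1. On the epithelium array 5 of 8 stroma markers were above the array median. All 6 corneal endothelium markers were above the median on both arrays, with sums of 5614 on the epithelium and 7752 on the stroma array. The lowest readings on these arrays were 41.8 and 42.6 for the epithelium and the stroma.

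**Figure D5:**
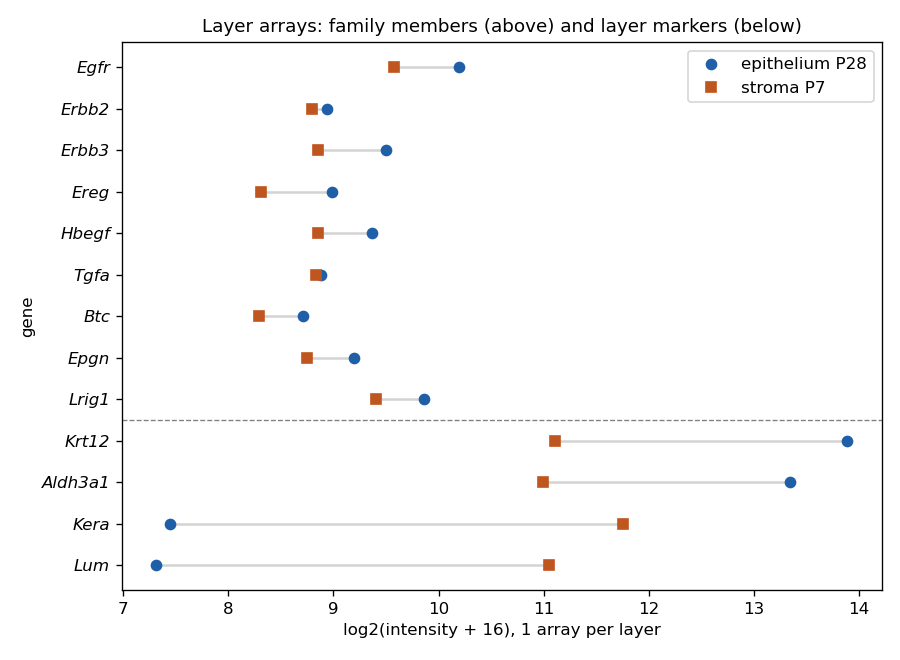
Log2(intensity + 16) of the 9 family genes (above the dashed line) and of 4 layer markers (below it) on the epithelium array of P28 (circles) and the stroma array of P7 (squares), 1 array each. All 9 genes lie further right on the epithelium array, by at most 0.67 log2 units, against 2.79 for Krt12.

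Further genes of the pathway were taken from fixed lists of 52 genes, of which 47 had a probe set with 1 symbol and 42 were tested. Over the 12 ages 24 of the 42 were called (background 40.6%), and the median span was 1.09 log2 units against 0.87 for all genes. From E14.5 to E15.5, 5 of 42 were called higher and 2 lower, against 7.35% of all genes called higher and 10.4% called in either direction. The median difference was 0.22, where that of all genes was 0.01. The largest differences were in Ier3, an early response gene (2.13, SE 0.30, adjusted p = 6.18e-06), Nrg1, which encodes neuregulin 1, a ligand of Erbb3 and Erbb4 (-1.92, SE 0.40, adjusted p = 0.000541), Stat3 (1.58, SE 0.16, adjusted p = 5.78e-08) and the adaptor Shc1 (1.30, SE 0.25, adjusted p = 0.000245). The Nrg1 call was lost without the 6 arrays rich in lens RNA (-1.01, adjusted p = 0.201), and that of Shc1 with E17.5 in place of E15.5 (0.94).

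Between E15.5 and P14, 3 of 42 were called higher and 1 lower, against 3.21% of all genes called higher and 5.19% called in either direction. The median difference was 0.00 over the 42 genes and -0.03 over all genes. The called genes were Nrg1 (2.66, SE 0.40, adjusted p = 3.96e-05), the early response gene Egr1 (2.47, SE 0.44, adjusted p = 0.000321), Dusp6, a phosphatase that switches off MAP kinase (1.80, SE 0.25, adjusted p = 2.08e-05), and Plcg1, a phospholipase bound by the receptor (-1, SE 0.13, adjusted p = 8.1e-06). Plcg1 lay on the minimum difference and was lost without E15.5 replicate 3 or P14 replicate 1. With P7 in place of P14, Egr1 differed by 0.93 (adjusted p = 0.189) and Plcg1 by -0.59, and neither was called. From P14 to P28, 1 of 42 was called higher and 2 lower, which is close to the 7.65% of all genes called in either direction. Here too age and array set cannot be told apart, and the epithelium, stroma and endothelium sums given above differed over this step. Their part was not tested. Lrig2, a relative of Lrig1, rose by 1.03 (SE 0.14, adjusted p = 7.83e-06), Egr1 fell by 1.81 (SE 0.44, adjusted p = 0.00306) and Erbb4, the remaining receptor of the family, fell by 1.03 (SE 0.19, adjusted p = 0.000303). The calls of Lrig2 and Erbb4 both ended without P14 replicate 2, that of Lrig2 also without P28 replicate 2 and that of Erbb4 also without P28 replicate 3. With P28 and 2 months set against P7 and P14, Lrig2 differed by 0.46 and Egr1 by -0.75 (adjusted p = 0.0641), and neither was called. Quantile normalization left Lrig2 at 0.905, under the minimum.

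Erbb3 and its ligand gene Nrg1 both had higher means from P28 on than before, and Erbb4 lower means than from E15.5 to P14. This split lies between P14 and P28, where age and array set cannot be told apart. Epithelium sums were 38010 to 48910 at P14 and 58760 to 62720 at P28, and stroma sums 31210 to 44980 and 16690 to 19390. Their part was not tested. Mean Nrg1 intensity was 27.7 ± 17.2 at E15.5 (SD, n = 3), 252 ± 58.5 at P14 (n = 3), 442 ± 85.2 at P28 (n = 3) and 858 ± 34.1 at 2 years (n = 2), a span of 4.39 log2 units (adjusted p = 3.64e-09). Mean Erbb4 intensity was 619 ± 32.6 at P7 (n = 3), 262 ± 28.7 at P28 (n = 3) and 103 ± 26.8 at 18 months (n = 2), a span of 2.43 (adjusted p = 8.19e-10). Egf itself read 211 to 270.3 as an age mean at all 12 ages.

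Over P28 to 2 years 6 of the 42 were called, against 6.77% of all genes. Among the called genes the widest span was that of Errfi1, whose product binds and inhibits the EGF receptor (1.499 log2 units, adjusted p = 0.0143). Its mean was 983 ± 365 at 2 months (n = 3), 1590 ± 260 at 6 months, 795 ± 31.4 at 1 year, 1546 ± 124 at 18 months and 2316 ± 621 at 2 years (n = 2 each), and it was lower at 2 months and 1 year than at the ages beside them, as were Ereg and Hbegf. The call ended without 2 years replicate 2 (adjusted p = 0.0672). Timp3, an inhibitor of the ligand-releasing proteases, spanned 1.46 (adjusted p = 0.00601) and was highest at 2 months, with 2234 ± 455. Lrig2 spanned 1.28 (adjusted p = 2.91e-05), with its lowest mean at 2 months.

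For each family gene the 3 other tested genes with the most similar age profile were listed by Pearson's r over the 12 age means, as a description across 12997 genes. The age means share the arrays and the inferred change of array set. For Ereg they were Liph (0.976), Muc20 (0.976) and Mboat1 (0.968), and for Hbegf Lpcat4 (0.983), Car5b (0.982) and Ccdc122 (0.975). For Epgn they were Capsl (0.956), Ggact (0.942) and Gna14 (0.933), and for Btc Enpp3 (0.973), Cda (0.97) and Lrrc26 (0.97). The receptor gene Egfr had Gnptab (0.99), Crybg1 (0.988) and Rnh1 (0.987), Erbb2 had Lrrc1 (0.965), Cog2 (0.964) and Smarcd2 (0.963), and Erbb3 had Elf1 (0.994), Usp45 (0.993) and Aktip (0.993). Lrig1 had Alcam (0.99), Lamp1 (0.977) and Dstyk (0.977), and Tgfa had Tmem241 (0.91), Slc38a7 (0.852) and Brpf3 (0.849). Within the family, r was 0.941 between Egfr and Lrig1, 0.938 between Egfr and Erbb3, 0.927 between Ereg and Btc and 0.908 between Ereg and Hbegf. Tgfa had a negative r with every other family gene, from -0.188 with Ereg to -0.472 with Epgn. The lowest r among the remaining genes was 0.328, between Epgn and Erbb2.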

How the data were processed

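Whole-cornea and layer RNA was hybridised to Affymetrix gene arrays after amplification of poly(A) RNA with a NuGEN Ovation kit, per the labels' protocols. The deposited values are probe set intensities on a linear scale, made by the authors with PLIER in Affymetrix Expression Console 1.1 as the submitters' processing notes list them; no scanner files were used here, so background and normalization are as deposited. Of 35557 probe sets, 21789 carry 1 symbol in the platform annotation, 1621 several and 12147 none listed. Probe sets above the array median, taken over probe sets with 1 symbol, on at least 2 whole-cornea arrays were kept (14329), the brightest per gene was used, and log2(intensity + 16) was fitted with limma 3.58.1 in R 4.3.3 with 1 mean per age over 32 arrays (20 residual and 4.1 prior degrees of freedom), two-sided, with Benjamini-Hochberg adjustment. The number of arrays limits the precision. The layer arrays entered no test. The fit was tested on simulated data first. The genes, lists and comparisons were chosen with earlier results of these data known. All listed family genes are named, and of the other pathway genes up to 4 called ones per comparison with the largest difference. Alternatives were other offsets, filters, normalizations, weights, thresholds, ages, array subsets, the replicate block and leaving out each array. On the layer arrays 2 probe set readings were missing. The replicate numbers were not taken to pair the samples. Over 160 same-numbered pairs of arrays the median correlation of deviations from the age means was -0.012, and 0.007 for different numbers.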

Additional observations from a re-analysis of the deposited data

How the results depend on the processing

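The 2 or 3 arrays per age limit the differences that can be resolved, and no age had enough arrays for a test of single outlying arrays. Of the 9 genes, 8 were called over the 12 ages under all 15 other settings and with each of 32 arrays left out. For E15.5 against E14.5 the count fell from 4 to 2 with only the compared ages in the fit and to 2 with weights per array, and ran from 2 to 5 with single arrays left out. For P28 against P14 it went from 1 to 0 with quantile normalization and to 0 with P28 and 2 months against P7 and P14, to 2 with weights per array, and ran from 1 to 2 with single arrays left out. Among E14.5 to P14 it was 5 in place of 8 without the E14.5 arrays, and among P28 to 2 years 2 in place of 1 both with weights per array and without the 6 lens-rich arrays. For ageing it was 1 in place of 0 with 2 years against 2 months. The counts for P14 against E15.5 ran from 3 to 4, and those of gene-step pairs from 6 to 12 against 9. No called difference between ages of a family or pathway gene changed sign under any of these settings. The spans of the F tests cannot be negative and say nothing on this. The cause of the changes in these counts was not tested. Without the lens-rich arrays E14.5 has 1 array, which is assumed to vary like the other groups. With the replicate number as a block the counts were 4 for E15.5 against E14.5, 4 for P14 against E15.5, 1 for P28 against P14, 0 for ageing, 8 over the 12 ages and 7 gene-step pairs. The Ereg calls at P3 and at 6 months were lost under the block (adjusted p = 0.0599 and 0.0534). Of the same-numbered pairs 17.5% correlated over 0.1, and their r ran from -0.435 to 0.4. These correlations cannot decide whether samples of the same number share more than the number.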
